A study of Mus musculus with 6 samples.

Results

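The Gimap genes encode GTPases of immunity-associated proteins, a family of small GTP-binding proteins found mainly in lymphocytes. The members measured were Gimap1, Gimap3, Gimap4, Gimap5, Gimap6, Gimap7, Gimap8 and Gimap9. They were taken by gene name from the table of counts, in which they are 8 of 29199 genes, and all 8 passed the filter on low counts that kept 18321 genes for testing. Their level was compared between regulatory T cells (Treg) that had shared a host with wild-type (WT) or with HP1α-deficient conventional CD4+ T cells (Tconv).

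All Treg were themselves WT. They were isolated from splenocytes of Foxp3-Thy1.1 animals on the B6 strain, in which the Foxp3 gene carries a Thy1.1 reporter, and were expanded in culture with IL-2, TGF-β and beads coated with antibodies to CD3 and CD28. They were then given, with naive Tconv and T cell-depleted bone marrow of B6 and semi-allogeneic B6D2F1 donors, to lethally irradiated hosts, either C57BL/6 J mice or B6 mice expressing CD45.1. In one group, Treg with WT Tconv (3 libraries), the Tconv were WT. In the other, Treg with HP1α KO Tconv (3 libraries), they lacked HP1α, a heterochromatin protein encoded by Cbx5, because a floxed Hp1a allele had been excised with CMV-cre, a transgene that acts in all tissues, in a line of mixed genetic background whose Hp1a-/- mice and Hp1a+/+ controls were littermates. Donors were young adult and sex-matched, Treg were sorted from the spleen 3 weeks after the graft by CD4, Thy1.1 and strain markers, and total RNA was sequenced. The comparison asks whether the genotype of the Tconv changes the transcripts of the Treg beside them. Neither the labels nor the methods say whether the 3 libraries of a group came from separate hosts or from pools, so p-values measure only the spread between these libraries.

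As background, Gimap proteins share a GTP-binding domain, and several sit on intracellular membranes. The family is best known for keeping resting T cells alive. Mice or rats without Gimap5 lose peripheral T cells, and loss of Gimap1 or Gimap6 also shortens T cell survival. Several of them have been tied to the Bcl-2 family of apoptosis regulators or to autophagy. Transcripts of the family are abundant in resting T cells and tend to fall when T cells are activated.

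The members lie side by side on mouse chromosome 6, between chr6:48624143-48747826 of the GRCm39 assembly, a stretch of 123.7 kb. In that order come Gimap8, Gimap9, Gimap4, Gimap6, Gimap7, Gimap1, Gimap5 and Gimap3, with Gimap6 and Gimap3 on the minus strand and the others on the plus strand. Part of their GTP-binding domain is the P-loop, a glycine-rich turn that holds the phosphates of the nucleotide and that many other nucleotide-binding proteins share. The coding sequence of each P-loop is shown because every member has at least 1 and because it shows which pair is hardest to tell apart by sequence. Capitals mark the codons of the invariant first glycine and of the closing glycine, lysine and serine, and all are read 5′ to 3′ on the coding strand of GRCm39 through the annotated canonical transcript:
Gimap8, domain 1, chr6:48627190-48627213, plus: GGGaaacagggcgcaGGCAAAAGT
Gimap8, domain 2, chr6:48633053-48633076, plus: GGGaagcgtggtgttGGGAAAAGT
Gimap8, domain 3, chr6:48635680-48635703, plus: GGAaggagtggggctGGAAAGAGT
Gimap9, chr6:48654457-48654480, plus: GGGaagactggaaatGGGAAGAGT
Gimap4, chr6:48667355-48667378, plus: GGAaaaactggagcaGGAAAGAGT
Gimap6, chr6:48679684-48679707, minus: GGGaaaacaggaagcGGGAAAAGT
Gimap7, chr6:48700458-48700481, plus: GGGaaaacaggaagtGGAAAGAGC
Gimap1, chr6:48719486-48719509, plus: GGCaggactgggaccGGCAAGAGT
Gimap5, chr6:48729528-48729551, plus: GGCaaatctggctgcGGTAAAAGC
Gimap3, chr6:48742821-48742844, minus: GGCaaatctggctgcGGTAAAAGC

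Gimap8 holds 3 such loops in 688 codons and is the long member, whereas the other 7 hold 1 loop each in 291 to 328 codons. Gimap3 and Gimap5 have the same 24 bases. Across 898 aligned coding bases this pair was 89.87% identical, and the next most alike pair, Gimap7 and Gimap9, was 64.95% identical. The 60 coding bases that start with the P-loop are a stretch more alike than the coding sequence as a whole, and are shown with the 1 base at which they differ in capitals:
Gimap3, chr6:48742785-48742844, minus: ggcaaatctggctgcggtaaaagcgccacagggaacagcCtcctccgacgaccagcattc
Gimap5, chr6:48729528-48729587, plus: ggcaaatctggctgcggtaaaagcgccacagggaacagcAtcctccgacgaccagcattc
Of the 31-base words in the transcripts of Gimap3, 9.32% also occur in Gimap5, and 7.63% of those of Gimap5 occur in Gimap3. The authors' counts share such reads between genes by a model, so part of the division between these 2 genes is an estimate, and their summed counts are given beside the single values.

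All 8 members were expressed in every library. Library totals ranged from 87421755 to 119078882 counts, and between 388656 and 456023 of them belonged to the family. As a share of all counts the family took 0.404%, 0.448% and 0.369% in replicates 1, 2 and 3 of Treg with WT Tconv, and 0.483%, 0.469% and 0.460% in Treg with HP1α KO Tconv. The groups did not overlap on this measure (0.407% ± 0.0398 against 0.471% ± 0.0119, SD, n = 3). After scaling of the library totals for composition (TMM), the family held 4044, 4578 and 3754 CPM (counts scaled to a library total of 1000000) with WT Tconv and 4829, 4564 and 4553 CPM with HP1α KO Tconv, a ratio of means of 1.13, or 1.08 without replicate 3 with WT Tconv. On that scale the groups overlapped, since replicate 2 with WT Tconv was above replicates 2 and 3 with HP1α KO Tconv. In sorted bulk RNA, fewer cells of a type and less RNA per cell cannot be told apart.

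Per length, Gimap4 was the most abundant member and Gimap5 the least. With levels expressed as CPM per kb of merged exons and averaged over all 6 libraries, Gimap4 stood at 560 ± 63.7 (SD, n = 6), followed by Gimap3 at 264 ± 30.5 and Gimap6 at 232 ± 17.6, whose ranges overlapped. Gimap8 at 145 ± 12.2 and Gimap7 at 127 ± 18.3 overlapped as well. Gimap9 at 82.2 ± 9.05, Gimap1 at 47.0 ± 5.31 and Gimap5 at 30.8 ± 2.67 each stood apart from their neighbours in every library. Even the lowest of them was high for a gene of these cells: ranked by CPM per kb among 18189 tested genes with a length, Gimap5 was at percentile 93.0 and Gimap4 at percentile 99.8. The order depended on the length used. With the longest transcript as the length, Gimap7 stood at 233 CPM per kb, above Gimap8 at 148, and its range then met that of Gimap6 instead, while Gimap9 and Gimap1 no longer stood apart.

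**Figure D1:**
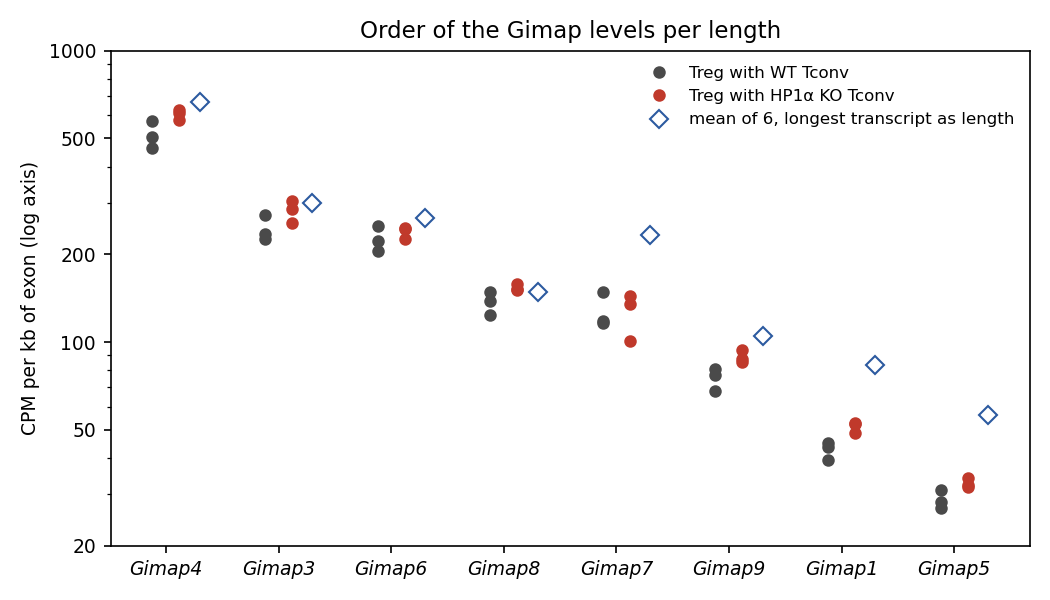
Level of each Gimap member in each library, in CPM per kb of merged exons on a log axis, with Treg with WT Tconv in grey, Treg with HP1α KO Tconv in red, and open diamonds for the mean of the 6 libraries when the longest transcript is used as the length. Gimap4 lies above every other member and Gimap5 below every other member under both lengths, and the diamond of Gimap7 lies well above its points.

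With HP1α KO Tconv, 7 of the 8 members had a higher fitted mean than with WT Tconv and none passed the test. The median log2 fold change (the group with HP1α KO Tconv over that with WT Tconv) was 0.20 over the 8 members and -0.0085 over the 18321 genes tested, of which 48.5% were higher. By the quasi-likelihood test of edgeR with Benjamini-Hochberg adjustment over all genes tested, 0 of 8 members had an adjusted p-value under 0.05, beside 0% of all genes. An unadjusted p-value under 0.05 was reached by 4 members, all higher with HP1α KO Tconv, where 6.98% of all genes were higher at that level. In 5 members every library with HP1α KO Tconv was above every library with WT Tconv, which held for 11.5% of all genes. By DESeq2, 0 of 8 members passed, beside 4.35% of the genes to which it gave an adjusted p-value. With 1 library left out, DESeq2 called Gimap4 without WT Tconv replicate 2 (adjusted p = 0.0411) and Gimap1 without HP1α KO Tconv replicate 2 (adjusted p = 0.00490), and no other member in any such fit. Those fits called 279 and 1413 of all genes, against 526 with all libraries. How many genes received an adjusted p-value in those fits is not given. The 2 member calls therefore have no share of all genes beside them. The members are neighbours in 1 locus measured in the same 6 libraries, so these counts are not 8 independent observations.

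**Figure D2:**
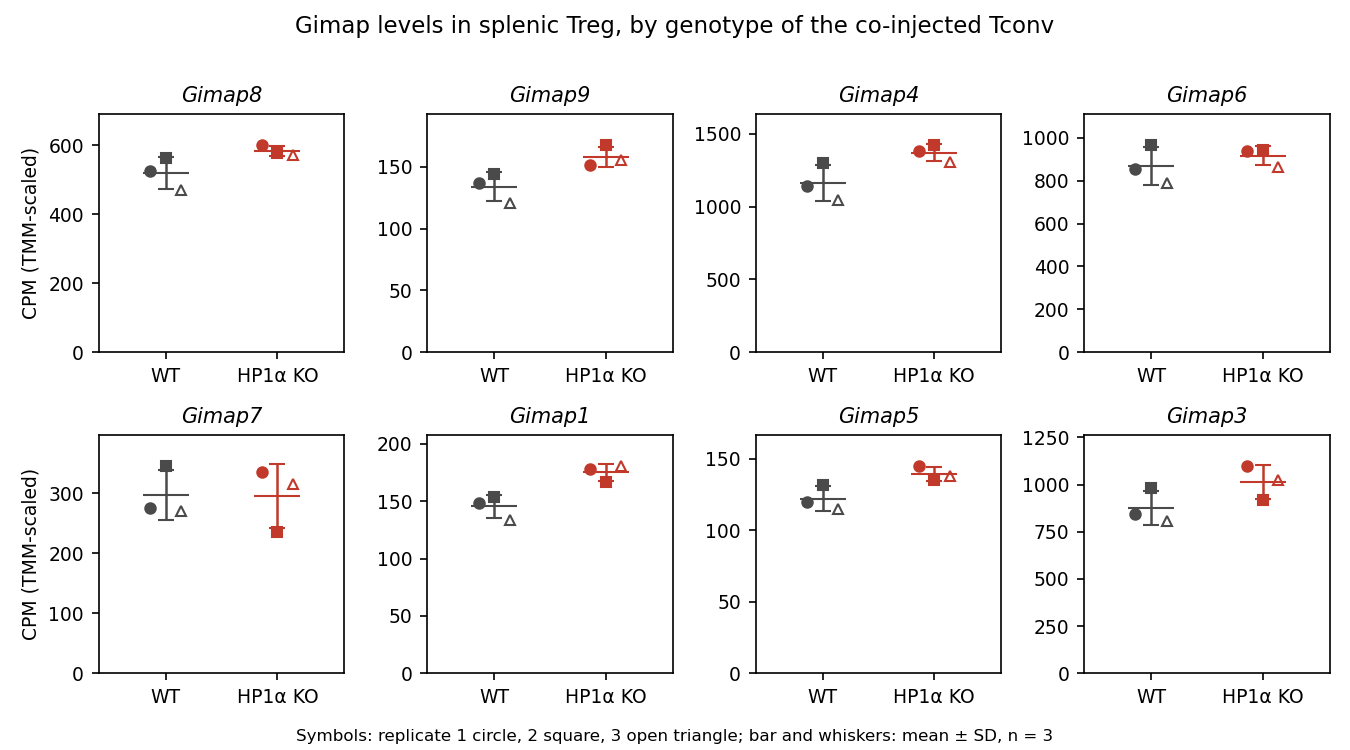
CPM on TMM-scaled totals of each member in each library, in 1 panel per gene in the order of the locus, each from 0, with circles, squares and open triangles for replicates 1, 2 and 3 and with mean ± SD (n = 3). In Gimap8, Gimap9, Gimap4, Gimap1 and Gimap5 the 3 red points lie above the 3 grey ones, and in Gimap7 replicate 2 with HP1α KO Tconv is the lowest point.

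Among the members needed for T cell survival, Gimap1, whose loss depletes mature T and B cells, had the largest log2 fold change of the family in the fit of all 6 libraries. Its levels were 149, 154 and 134 CPM with WT Tconv and 178, 167 and 180 CPM with HP1α KO Tconv. The groups did not overlap, and their means of 145 ± 10.3 and 175 ± 7.24 CPM (SD, n = 3) corresponded to a log2 fold change of 0.27 ± 0.0738 (SE), an adjusted p-value of 0.216 by edgeR. The adjusted p-value by DESeq2 was 0.0721. Gimap1 (ENSMUSG00000090019, chr6:48715947-48720843) was the only member with an unadjusted p-value under 0.05 in each of the 6 edgeR fits with TMM scaling that left out 1 library.

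Gimap5, the gene whose loss causes lymphopenia in rats and mice, was at 119.9, 132 and 115 CPM with WT Tconv and at 145, 135 and 138 CPM with HP1α KO Tconv. The gap between the highest library of the first group and the lowest of the second was small, and the log2 fold change was 0.19 ± 0.0730 (SE) (adjusted p = 0.296 by edgeR). Gimap3, its near copy, which has been found to bind Bcl-2 family proteins, was at 841, 979 and 809 CPM with WT Tconv and at 1095.5, 919 and 1023 CPM with HP1α KO Tconv. Here replicate 2 with WT Tconv exceeded replicate 2 with HP1α KO Tconv, so the groups overlapped, and the log2 fold change was 0.21 ± 0.100 (SE) (adjusted p = 0.391 by edgeR). Summed to 1 feature, Gimap3 and Gimap5 gave 0.21 ± 0.0973 (SE) (adjusted p = 0.382 by edgeR), a sum in which Gimap3 holds most of the counts and which therefore says little of Gimap5.

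Of the members tied to cell death and autophagy, Gimap4, which speeds the execution of T cell apoptosis and binds Bax, was at 1144.5, 1296 and 1045 CPM with WT Tconv and at 1385, 1419 and 1305.5 CPM with HP1α KO Tconv. The lowest of the second group was only just above the highest of the first. Its log2 fold change was 0.24 ± 0.0933 (SE), with an adjusted p-value of 0.303 by edgeR. Gimap6, a partner of Gabarapl2 in autophagy, was at 853, 965 and 791 CPM with WT Tconv and at 940.2, 943 and 865 CPM with HP1α KO Tconv. These groups overlapped on both sides, the log2 fold change was 0.075 ± 0.0901 (SE) (adjusted p = 0.734 by edgeR), and it fell to 0.012 without replicate 3 with WT Tconv.

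Gimap7, which hydrolyses GTP as a dimer, was the one member without a higher mean with HP1α KO Tconv. It was at 275, 344 and 270.0 CPM with WT Tconv and at 335, 235 and 315 CPM with HP1α KO Tconv. Its lowest library, replicate 2 with HP1α KO Tconv, and its highest, replicate 2 with WT Tconv, both went against the difference seen in the other members. The log2 fold change was -0.0067 ± 0.155 (SE) (adjusted p = 0.989 by edgeR). Its sign turned when replicate 2 of either group was left out (0.13 in both cases), and the other alternatives that turned it are given with the processing. The difference between Gimap7 and the other members was not tested.

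Gimap8, the member with 3 GTPase domains, was at 524, 564 and 470.1 CPM with WT Tconv and at 599, 578 and 570.5 CPM with HP1α KO Tconv. The groups did not overlap by a narrow margin, and the log2 fold change of 0.16 ± 0.0816 (SE) did not pass by the edgeR quasi-likelihood test (adjusted p = 0.405), and was 0.098 without replicate 3 with WT Tconv. Gimap9 was at 137, 144 and 121 CPM with WT Tconv and at 152, 167 and 156 CPM with HP1α KO Tconv, with a log2 fold change of 0.24 ± 0.0823 (SE) (adjusted p = 0.258 by edgeR). Every library with HP1α KO Tconv was above those with WT Tconv for this gene too.

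The size of these differences depended in part on 1 library. Replicate 3 with WT Tconv was the lowest of all 6 libraries in every member except Gimap7. That library also stood apart in transcripts of other cells: its 6 red cell markers summed to 5596 CPM against 373 to 681 CPM in the other 5 libraries, its 7 neutrophil markers to 1849 CPM against 41.8 to 223 CPM, and its 6 macrophage or monocyte markers to 181 CPM against 13.0 to 47.3 CPM. Without it, 7 of 8 members were still higher with HP1α KO Tconv and 5 of 8 still did not overlap, where 16.2% of all genes then did the same, while the median log2 fold change of the members fell from 0.20 to 0.15 and the members with an unadjusted p-value under 0.05 from 4 to 1 (Gimap1). Leaving out replicate 2 with WT Tconv instead raised the median to 0.28 and that number to 6. The share of all genes at that level in these fits is not given here. The change in that number therefore cannot be read as particular to the members. The part of these other cells in the result was not tested beyond this.

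**Figure D3:**
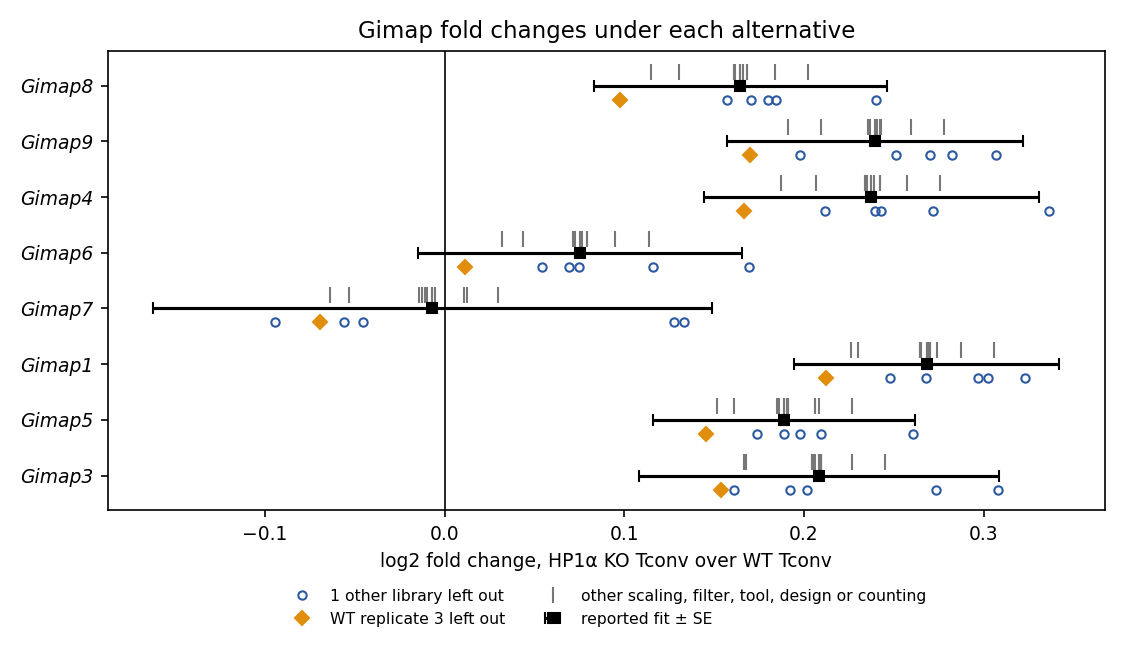
Log2 fold change of each member (HP1α KO over WT Tconv) in the reported fit with its standard error (black), with replicate 3 with WT Tconv left out (orange), with each other library left out (blue) and with other scalings, filters, tools, designs or counting (grey). Every value of 7 members lies above 0, those of Gimap6 down to 0.012, and the values of Gimap7 lie on both sides of 0.

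Markers of T cells and Treg were read in each library. They do not test the Tconv genotype by which the labels separate the groups. All 6 T cell markers and all 5 Treg markers were detected, the T cell markers summing to 3013 to 3431 CPM with WT Tconv and to 3052 to 3508 CPM with HP1α KO Tconv, and the Treg markers to 3510 to 4062 CPM and 3125 to 3693 CPM. Among the Treg markers, Ctla4 was at 1246, 1349 and 1112 CPM with WT Tconv. It was lower without overlap with HP1α KO Tconv, at 1028, 1018 and 798 CPM. Of all 18321 genes tested, 4222 did not overlap between the groups, 2102 of them higher with HP1α KO Tconv. Foxp3, Il2ra, Ikzf2 and Tnfrsf18 overlapped between the groups. Replicate 3 with WT Tconv and replicate 2 with HP1α KO Tconv had the lowest T cell marker sums of their groups. Per 1000 counts of those T cell markers, the family had 1219, 1334 and 1246 counts with WT Tconv and 1376, 1496 and 1307 counts with HP1α KO Tconv. The groups overlapped on that scale and the ratio of means was 1.10. With the T cell markers as the library size, a setting chosen after the counts had been seen, the median log2 fold change of the members was 0.16, 7 of 8 remained above 0 and Gimap1 alone had an unadjusted p-value under 0.05. With the same scaling and replicate 3 with WT Tconv left out, the median was 0.16 and 0 members had an unadjusted p-value under 0.05. For neither setting is the share of all genes at that level given. Endothelial cells also express Gimap genes, and the sum of 6 endothelial markers was 68.2 to 77.2 CPM with WT Tconv and 79.3 to 89.1 CPM with HP1α KO Tconv, without overlap. Nearly all of it was Pecam1 (67.3 to 88.2 CPM). The other markers, Cdh5, Kdr, Tek, Emcn and Egfl7, did not exceed 0.605, 0.181, 0.0256, 0.0340 and 0.589 CPM in any library. The cells had been sorted by CD4 and Thy1.1, and the part of endothelial cells in the result was not tested.

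The share of each member in the family was also compared. Gimap4 supplied 28.1% ± 0.275 of the family's counts with WT Tconv and 29.5% ± 1.40 with HP1α KO Tconv (SD, n = 3), and Gimap6 supplied 21.1% ± 0.0170 and 19.7% ± 0.864. In both genes the groups did not overlap, in opposite directions. Gimap7 supplied 7.17% ± 0.364 and 6.34% ± 1.03, with overlapping groups. Replicate 2 with HP1α KO Tconv stood apart in Gimap4 and Gimap7. In replicates 1, 2 and 3 of that group, Gimap4 supplied 28.7%, 31.1% and 28.7%, against at most 28.3% with WT Tconv. Gimap7 supplied 6.93%, 5.15% and 6.92% in the same libraries. The shares of the other 5 members moved by at most 0.52 percentage points. As these are parts of 1 whole, a gain of one share lowers the others, and none of the shares was tested.

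Across the 6 libraries the members varied together, Gimap7 less closely than the rest. Among the 21 pairs without Gimap7, Pearson's r of log2 CPM ran from 0.59 to 0.96 with a median of 0.87, and in the 7 pairs with Gimap7 it ran from -0.037 to 0.67 with a median of 0.32. Once the group means had been taken out, the 21 pairs ran from 0.22 to 0.99 with a median of 0.82 and the 7 pairs with Gimap7 from -0.012 to 0.96 with a median of 0.56. Without replicate 3 with WT Tconv, the 21 pairs ran from 0.058 to 0.98 with a median of 0.69 and the 7 pairs from -0.45 to 0.67 with a median of 0.18. The closest pair after removal of the group means was Gimap4 and Gimap6 (r = 0.99), and Gimap7 was then closest to Gimap3 (r = 0.96). All genes of a library share its depth, scaling and cell makeup, so these values over 6 libraries describe the libraries and carry no test.

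The genes outside the family whose log2 CPM followed that of the summed members most closely, among 8838 genes with a mean of at least 10 CPM, were Rrnad1 (r = 0.994), Gm30054 (r = 0.988) and Pcsk7 (r = 0.980), the last of which encodes a proprotein convertase. An r above 0.9 was reached by 137 genes. Gm30054 ranged from 16.1 to 21.4 CPM, with a log2 fold change of 0.21 (adjusted p = 0.392 by edgeR). Rrnad1 ranged from 21.6 to 24.7 CPM and Pcsk7 from 68.0 to 78.7 CPM, both lowest in replicate 3 with WT Tconv, and their log2 fold changes of 0.10 and 0.088 did not pass the edgeR test (adjusted p = 0.577 and 0.612).

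Other transcripts of the locus that carry reads of the family were also examined. Gimap1os, a long noncoding RNA that runs antisense to Gimap1 and covers 39.1% of its exonic bases, was at 56.0, 60.5 and 48.6 CPM with WT Tconv and at 59.3, 56.2 and 54.2 CPM with HP1α KO Tconv, with a log2 fold change of 0.039 ± 0.0909 (SE) (adjusted p = 0.868 by edgeR). The libraries were made with a kit that keeps strand, but how strand entered the counting is not given in the sources used here, so some uncertainty remains about how reads of Gimap1 and its antisense partner were divided. Gm28053, a read-through gene annotated on the same strand over exons of Gimap7, Gimap1 and Gimap5, was at 17.3, 18.7 and 12.9 CPM with WT Tconv and at 21.2, 18.8 and 21.2 CPM with HP1α KO Tconv. It did not overlap between groups, and its log2 fold change was 0.33 ± 0.141 (SE) (adjusted p = 0.342 by edgeR). It shares 3.48%, 5.80% and 3.60% of the exonic bases of Gimap7, Gimap1 and Gimap5, and the addition of all its counts to each gene in turn gave log2 fold changes of 0.013, 0.27 and 0.21.

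Within 500 kb of the cluster, 24 genes other than the members were tested, Gimap1os and Gm28053 among them. Of these, 0 passed the edgeR test and 7 had an unadjusted p-value under 0.05, beside 14.5% of all genes. Of the 7, 6 were higher with HP1α KO Tconv, Gm28053 included, beside 6.98% of all genes. Their median log2 fold change was 0.082, with a range from -0.39 to 0.65, and 16 of 24 were higher. The nearest tested gene before the cluster, AI854703 at 13.5 kb, was at 2.05 ± 0.590 CPM with WT Tconv and 2.51 ± 0.478 CPM with HP1α KO Tconv (adjusted p = 0.628 by edgeR). On the other side, the nearest was Tmem176b at 61.3 kb, which encodes a membrane protein of the endolysosomal system and was at 7.77 ± 1.39 and 10.96 ± 2.61 CPM (log2 fold change 0.50 ± 0.199 (SE), adjusted p = 0.316 by edgeR). By DESeq2, 1 of the 24 genes passed, beside 4.35% of the genes it gave an adjusted p-value: Tra2a, a splicing regulator 473 kb away, was lower with HP1α KO Tconv at 173 ± 7.14 CPM against 212 ± 9.36 CPM, and is named because it was the single call. Of the 24 genes, DESeq2 gave no adjusted p-value to Gm16630, Atp6v0e2, Gm53041, Gm44226, Aoc1 and Igf2bp3, so the count comparable with 4.35% is over fewer genes.

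**Figure D4:**
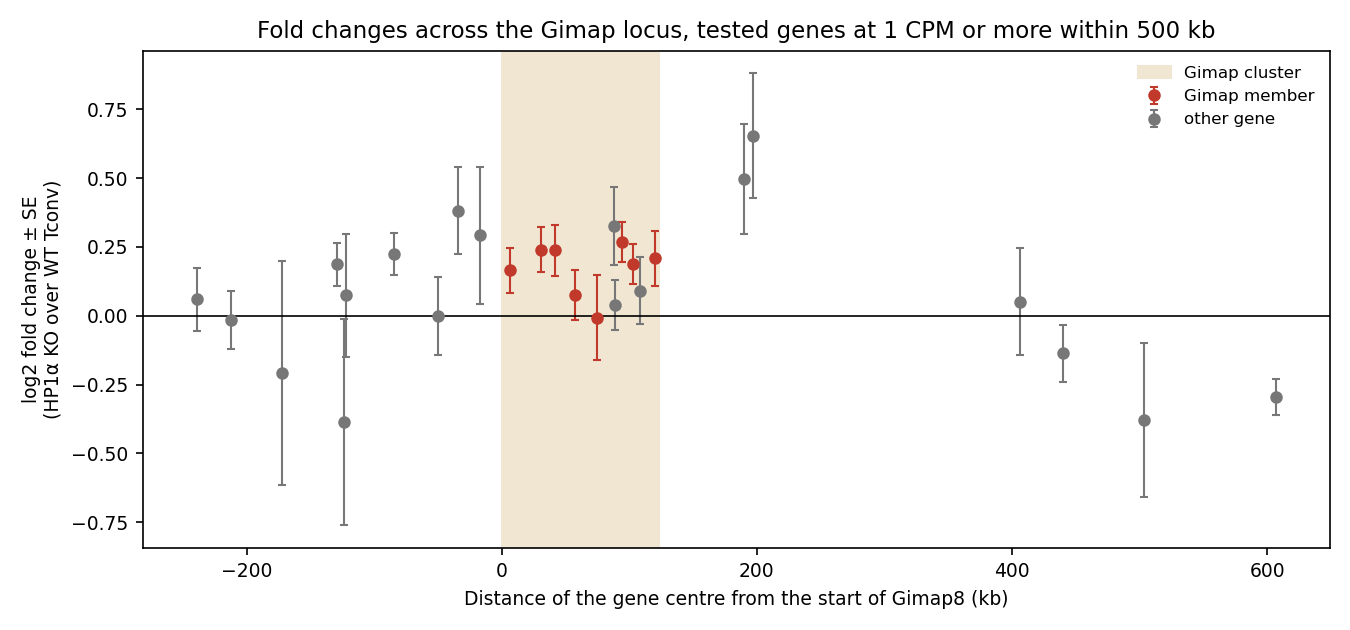
Log2 fold change with its standard error (HP1α KO over WT Tconv) of tested genes with a mean of at least 1 CPM, against the distance in kb of the gene's centre from the start of Gimap8, for Gimap members (red) and other genes (grey), with the cluster shaded. Of the 8 members, 7 lie between 0.075 and 0.27, and values outside the cluster spread from -0.39 to 0.65.

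The promoters were read as a description of what the members share in sequence. The windows of 300 bases, 250 before and 50 after the annotated start of the canonical transcript, were searched on both strands for the core letters of 4 factors used in T cells, and the share of 21757 promoters of protein-coding genes with the same letters was 3.15% for the forkhead core TGTTTAC, 5.04% for the Runx core TGTGGTT, 32.24% for the Ets core CNGGAAG and 25.88% for the Rbpj core TGGGAA. These cores do not overlap with each other in the matches found. The forkhead core was found in Gimap3, at -206 from the start, and the Ets core in Gimap3 at -45, in Gimap5 at -19 and in Gimap9 at -161 and 26. None of these letters was found in the windows of Gimap1, Gimap4, Gimap6, Gimap7 or Gimap8. The windows of Gimap3, which holds matches to 2 of the cores, and of Gimap1 and Gimap7, the members with the largest and the smallest fold change, are printed with matches in capitals, 5′ to 3′ on the strand of the gene:
Gimap3, chr6:48747777-48748076, minus: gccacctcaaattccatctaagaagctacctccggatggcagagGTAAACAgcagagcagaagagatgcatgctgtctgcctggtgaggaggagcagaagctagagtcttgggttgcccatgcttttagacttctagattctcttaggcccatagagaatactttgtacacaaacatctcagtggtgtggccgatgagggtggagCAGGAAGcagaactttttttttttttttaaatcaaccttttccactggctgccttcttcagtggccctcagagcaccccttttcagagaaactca
Gimap1, chr6:48715697-48715996, plus: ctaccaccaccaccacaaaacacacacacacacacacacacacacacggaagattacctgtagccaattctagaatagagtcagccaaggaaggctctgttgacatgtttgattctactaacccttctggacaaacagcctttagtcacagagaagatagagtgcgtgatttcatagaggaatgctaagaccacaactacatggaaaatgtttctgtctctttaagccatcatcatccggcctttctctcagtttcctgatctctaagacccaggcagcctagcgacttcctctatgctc
Gimap7, chr6:48695305-48695604, plus: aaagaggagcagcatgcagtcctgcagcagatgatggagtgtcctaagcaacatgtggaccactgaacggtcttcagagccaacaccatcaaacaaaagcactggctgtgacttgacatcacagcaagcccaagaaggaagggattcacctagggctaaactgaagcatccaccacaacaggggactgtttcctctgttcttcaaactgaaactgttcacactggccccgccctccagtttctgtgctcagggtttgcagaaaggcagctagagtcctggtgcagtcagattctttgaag

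The partners of the family and the genes of T cell survival around it did not differ in 1 direction. The list held 19 genes, namely members of the Bcl-2 family, the Gabarap and Map1lc3b proteins of autophagy, Gsk3b and Ctnnb1, Prkcq, and the receptor chains for IL-7 and IL-2. All were tested, 0 passed by edgeR or by DESeq2, 10 were higher and 9 lower with HP1α KO Tconv, and their median log2 fold change was 0.043. An unadjusted p-value under 0.05 was reached by 6 of them, 4 higher and 2 lower, where 14.5% of all genes reached it, 6.98% higher and 7.52% lower.

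Bcl2, the survival protein of resting T cells, was at 62.2, 58.9 and 60.4 CPM with WT Tconv and at 68.2, 77.8 and 75.7 CPM with HP1α KO Tconv, without overlap. Its log2 fold change was 0.29 ± 0.0721 (SE) (adjusted p = 0.209 by edgeR, 0.0535 by DESeq2). The apoptosis genes Bid and Bak1 and the kinase gene Prkcq also had unadjusted p-values under 0.05, with log2 fold changes of 0.31, 0.16 and 0.20 (adjusted p = 0.229, 0.295 and 0.324 by edgeR). In the other direction, Bcl2l1, which encodes the survival protein Bcl-xL, was at 84.4 ± 7.88 CPM with WT Tconv and 69.1 ± 6.82 CPM with HP1α KO Tconv, that is, a log2 fold change of -0.29 (adjusted p = 0.249 by edgeR). Gabarapl1, a relative of the autophagy partner of Gimap6, was at 34.4 ± 3.45 and 27.7 ± 2.56 CPM, a log2 fold change of -0.32 (adjusted p = 0.241 by edgeR). Il7r, the receptor for the survival cytokine IL-7, was at 160 ± 17.0 and 170 ± 7.89 CPM (log2 fold change 0.089 ± 0.0871 (SE), adjusted p = 0.673 by edgeR).

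Of 22 genes of T cell quiescence and of transcription factors linked to Gimap expression, 8 were higher and 14 lower with HP1α KO Tconv, with a median log2 fold change of -0.088. None passed the edgeR test, and 7 had an unadjusted p-value under 0.05, of which Slfn2 alone was higher, beside the same 14.5% of all genes, of which 7.52% were lower. Tob1, a brake on T cell proliferation, was at 25.9, 25.6 and 27.6 CPM with WT Tconv and at 21.1, 19.4 and 17.5 CPM with HP1α KO Tconv, without overlap. Its log2 fold change was -0.45 ± 0.0914 (SE) (adjusted p = 0.209 by edgeR, 0.00677 by DESeq2). Btg1, an antiproliferative gene of the same family, was at 2216 ± 160.4 and 1728 ± 164 CPM, a log2 fold change of -0.36 (adjusted p = 0.209 by edgeR, 0.0193 by DESeq2). These were the 2 genes of the list that passed by DESeq2, beside 4.35% over all genes. Rbpj, the nuclear partner of Notch, and the factor gene Myb had log2 fold changes of -0.30 and -0.38 (adjusted p = 0.229 and 0.252 by edgeR).

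Slfn2, a gene needed for T cell quiescence, was at 347 ± 27.8 CPM with WT Tconv and 410.4 ± 29.4 CPM with HP1α KO Tconv, giving a log2 fold change of 0.24 (adjusted p = 0.269 by edgeR). Klf2, a quiescence factor, was at 44.0 ± 4.84 and 57.0 ± 16.2 CPM, with a log2 fold change of 0.37 ± 0.211 (SE) (adjusted p = 0.484 by edgeR). Foxp3, the lineage factor of Treg, was at 200.1, 222 and 209 CPM with WT Tconv and at 228, 154 and 252 CPM with HP1α KO Tconv, and its log2 fold change was 0.0049 ± 0.178 (SE) (adjusted p = 0.994 by edgeR). Its lowest library was replicate 2 with HP1α KO Tconv, which was also the lowest for Gimap7.

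**Figure D5:**
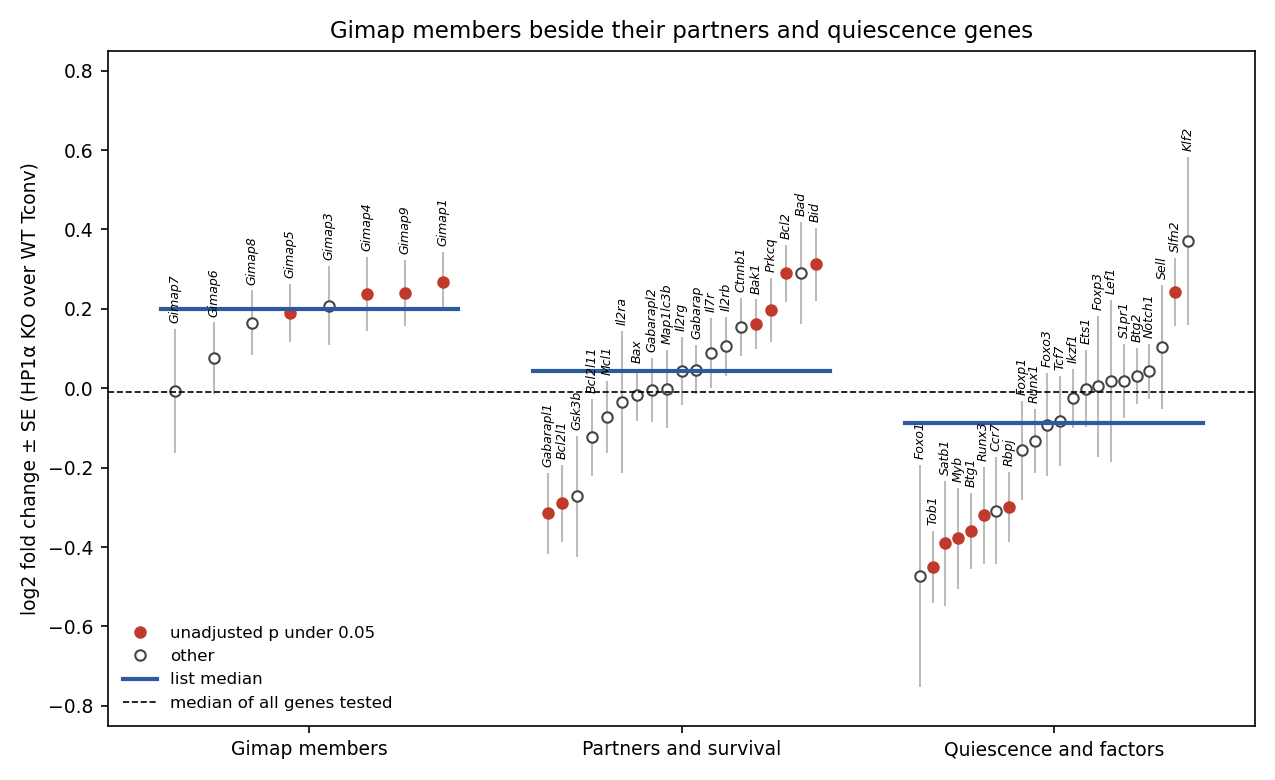
Log2 fold change with its standard error (HP1α KO over WT Tconv) of the 8 Gimap members, the 19 genes of partners and survival and the 22 genes of quiescence and transcription factors, ordered within each list, with filled points for an unadjusted edgeR p-value under 0.05, a blue line for the median of the list and a dashed line for that of all genes tested. The medians are 0.20, 0.043 and -0.088.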

How the data were processed

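The deposited table holds estimated counts per gene, as whole numbers and not normalized, which the authors made with the nf-core RNA-seq pipeline: reads were trimmed, aligned with STAR to GRCm39 with an Ensembl annotation, and quantified with Salmon, as the methods and processing notes give. Genes were tested with edgeR 4.0.16 in R 4.3.3 (TMM, filterByExpr, quasi-likelihood F-test with robust estimation, group as the sole term), with Benjamini-Hochberg adjustment over all 18321 genes tested and a threshold of 0.05. The study's own tool, DESeq2, was run as an alternative in version 1.42.0, with its alpha setting at 0.1. The study also required a minimum absolute log2 fold change for a call. That was not applied here, where an adjusted p-value under 0.05 alone made a call by DESeq2. The fits were tested on simulated data. Standard errors were derived by dividing each log2 fold change, without its sign, by the root of its F statistic. Levels are CPM on TMM-scaled totals, except that the share of the family uses plain totals. Of 29199 rows, 97 had an identifier but no symbol (0.0664% of counts) and stayed in. All per-sample columns were used. Positions, lengths and sequences were read from a GENCODE release, a later annotation of the same GRCm39 assembly, which matched 28854 identifiers.

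The members, gene lists and tests were chosen with earlier results of these data known. The genes named were all 8 members, other genes named Gimap, the nearest tested gene on each side of the cluster, genes of the partner and quiescence lists with an unadjusted p-value under 0.05 (at most 4 per direction and list), Bcl2, Il7r, Foxp3 and Klf2, and the 3 genes most correlated with the summed members. Gm28053 and Tra2a fell outside this rule and were named after their values had been seen. Single cell type markers also fell outside it, and Ctla4 and Pecam1 were picked out among them by their values. The locus genes without an adjusted p-value by DESeq2 were likewise named for that reason. Alternatives comprised other scalings, filters and tools, the replicate number as a block, the sum of Gimap3 and Gimap5, another gene length, a wider locus and leaving out each library. Scaling to T cell markers, with all libraries and with WT Tconv replicate 3 left out, and the addition of Gm28053 were chosen after seeing the data. Within groups, libraries were further apart than sampling noise (chi-square per degree of freedom from 21.3), so none was taken as a repeat deposit of another.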

Additional observations from a re-analysis of the deposited data

How the results depend on the processing

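The direction of 7 members (all but Gimap7) held in every alternative run, and 0 of 8 passed in each alternative by edgeR or limma-voom. Gimap7, at -0.0067 on the log2 scale, became 0.011 with upper quartile scaling, 0.030 with total counts alone and 0.013 with the counts of Gm28053 added. When each library was left out in turn it ran from -0.094 to 0.13 by edgeR and from -0.11 to 0.13 by DESeq2, positive without replicate 2 of either group in both tools; the cause was not tested. For the other members the edgeR log2 fold changes with 1 library left out ran from 0.21 to 0.32 for Gimap1, 0.15 to 0.31 for Gimap3, 0.17 to 0.34 for Gimap4, 0.15 to 0.26 for Gimap5, 0.012 to 0.17 for Gimap6, 0.098 to 0.24 for Gimap8 and 0.17 to 0.31 for Gimap9. By DESeq2 with 1 library left out, 0 to 1 member passed: Gimap4 without WT Tconv replicate 2 (0.32, adjusted p = 0.0411) and Gimap1 without HP1α KO Tconv replicate 2 (0.30, adjusted p = 0.00490). The share of all genes called in those fits is not given. Over all genes, edgeR made 0 calls, with 2656 genes at an unadjusted p-value under 0.05. The number of calls was 1 with upper quartile scaling and 38 with no filter beyond 1 count. With T cell marker scaling it was 2, with or without WT Tconv replicate 3. It was 0 to 2 by edgeR with 1 library left out, and 526 by DESeq2 with all libraries. With 1 library left out, DESeq2 made 181 to 1413 calls, fewest without WT Tconv replicate 3 and most without HP1α KO Tconv replicate 2. The cause was not tested. With the replicate block, 1 gene of all tested and 0 members passed, and Gimap1 was at 0.27 (adjusted p = 0.412). Same-numbered libraries correlated at -0.12, 0.11 and 0.084 over 8848 genes, not every library correlated best with its own number, and the numbers were not taken as pairs. Within 1000 kb of the cluster, 0 of 38 other genes passed by edgeR. With the longest transcript as the length, 7 of 8 levels per kb moved by more than their spread. In the order of the members, only Gimap7 and Gimap8 changed places.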
